A study of Rattus norvegicus with 6 samples.

Results

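The transcripts described here are those of 8 families of RNA-binding and RNA-remodelling proteins in rat spinal cord, namely the heterogeneous nuclear ribonucleoproteins (Hnrnp), the serine- and arginine-rich splicing factors (Srsf), the small nuclear ribonucleoprotein proteins (Snrp), the SF3a and SF3b subunits (Sf3), the pre-mRNA processing factors (Prpf), the LSm proteins (Lsm) and the DEAD-box (Ddx) and DEAH-box (Dhx) helicases. They were chosen by gene symbol. The rule took 95 of the 12978 genes named on the array, with 96 of its 22226 probes, of which 13192 have a gene symbol. Of these probes 16 belonged to Hnrnp, 9 to Srsf, 5 to Snrp, 5 to Sf3, 9 to Prpf, 12 to Lsm, 27 to Ddx and 13 to Dhx genes, and Lsm10 alone had more than 1 probe.

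Transcripts were measured with an Illumina BeadChip for the rat in cords of Sprague-Dawley females. The mutant rats carry the SOD1 gene with the G93A mutation, a model of amyotrophic lateral sclerosis (ALS), and the controls were wild-type (WT) littermates matched for age. Each of the 6 arrays held 1 pool of RNA from 5 rats, with 1 mutant and 1 WT pool at the presymptomatic stage, 1 of each at disease onset and 1 of each at end stage, so no combination of genotype and stage was replicated. The age is labelled as 10 weeks on every pool, although the study's design gives it for the presymptomatic rats alone, and the labels name the lumbar cord in some fields and the thoracic cord in others, so neither age nor segment was used. The labels do not name the promoter that drives the transgene or the line. The number of arrays limits the precision of every value below, and pooling leaves the spread between rats unmeasured.

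In the nucleus, introns are removed by the spliceosome, which is assembled from small nuclear ribonucleoproteins (snRNPs). Each is an RNA bound by a ring of Sm or LSm proteins and by particle-specific proteins, and the Snrp genes encode proteins of both kinds. The SF3a and SF3b complexes belong to the U2 snRNP and help to select the branch site, the Prpf proteins act in the U4/U6.U5 particle and in activation, and DEAD- and DEAH-box helicases drive the rearrangements between steps. Hnrnp and Srsf proteins bind the transcript itself and steer the choice of splice sites, and many of them also act in export, translation and decay. RNA-binding proteins are prominent in human ALS, in which mutations in several of them, Hnrnpa1 and Hnrnpa2b1 among the candidates, have been described.

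In the deposited table the probe IDs stand beside values of other probes. Each gene name below therefore rests on sorting the IDs as text and pairing them with the rows in file order. Among the 96 probes, 77.1% (74 probes) were detected on all 6 arrays in this order, at a detection p below 0.01. Shifting the sorted IDs by 1 to 3 rows in either direction gave 35.4 to 46.9%, the order as deposited gave 34.4%, and the share over all probes was 37.7%. In the sorted order 90 probes of 89 genes were detected on at least 1 array and were analysed, 16 of them on 1 to 5 arrays. The other 6, for Snrpc, Snrpd1, Prpf18, Lsm1, Ddx19b and Dhx33, were not detected on any array and have no value here.

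Each array detected between 9116 and 10942 probes, and the lowest number belonged to the presymptomatic mutant pool, which also had the lowest rank correlations with the other pools (Spearman's rho 0.857 to 0.869, against up to 0.917 between other pools). Of the 81 member probes detected on the other 5 arrays, 7 (8.64%) were not detected in that pool, against 6.71% of all such probes. Markers of the labelled tissue were present, since 9 of 9 neuronal, 6 of 6 astrocyte and 7 of 7 oligodendrocyte marker probes on the array were detected on at least 1 array. The summed intensity of 11 microglial and macrophage markers was 5254 to 6485 in the WT pools, 5931 in the presymptomatic mutant pool, 24612 at onset and 26480 at end stage. The summed neuronal markers went from 39654 to 47728 in the WT pools to 37613, 26460 and 25835 in the mutant pools of the 3 stages, and the summed oligodendrocyte markers from 19756 to 28478 in the WT pools to 26513, 19215 and 16058. Meningeal and fibroblast markers summed to 15408 to 26888 in the WT pools and to 20606, 30304 and 38138 in the mutant pools. Skeletal muscle markers summed to 2946 to 7512 in the WT pools, where end stage was highest, and to 2509, 4718 and 1289 in the mutant pools. In such bulk tissue, fewer cells of a type and less RNA per cell cannot be told apart. The part of these shifts in the members' values was not tested.

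Differences are given as log2 values on a scale normalized across the arrays by limma's neqc, with a standard error (SE) where a fit was made. On this scale the differences of dim probes are understated. For each stage the mutant pool was set against the 3 WT pools, a test that assumes for the single mutant pool the spread of the WT pools and treats the latter, which differ in stage, as replicates. The comparisons of the mutant pools therefore share their controls. Adjustment of p-values (Benjamini-Hochberg) ran over the 12711 probes kept.

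Only 3 members passed the threshold of 0.05 in any comparison, namely the U1 snRNP protein gene Snrpa and the helicase gene Ddx5, which rose at end stage, and the helicase gene Ddx1, which fell in the symptomatic stages. The 250 bases before the annotated start of these genes are shown, together with those of Snrpb2, the U2 snRNP relative of Snrpa whose values ran alongside it, so that a reader can see what lies upstream of the transcripts the results turn on. They come from RefSeq on the GRCr8 assembly, which held a promoter for 88 of the 95 genes. Capitals mark matches on either strand to the CCAAT box (CCAAT), the GC box (GGGCGG), a site of ETS factors (CCGGAAG), the palindromic NRF1 site or the TATA box (TATAAA). The stretches lie at chr1:91618043-91618292 on the minus strand for Snrpa, chr10:92231929-92232178 on the minus strand for Ddx5, chr6:41756237-41756486 on the minus strand for Ddx1 and chr3:150852584-150852833 on the plus strand for Snrpb2. All are printed 5′ to 3′ in the direction of transcription.
Snrpa: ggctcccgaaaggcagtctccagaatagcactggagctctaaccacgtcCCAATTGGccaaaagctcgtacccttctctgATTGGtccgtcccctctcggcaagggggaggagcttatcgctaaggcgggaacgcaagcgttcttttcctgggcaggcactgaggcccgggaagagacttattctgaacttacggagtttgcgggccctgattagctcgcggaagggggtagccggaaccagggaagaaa
Ddx5: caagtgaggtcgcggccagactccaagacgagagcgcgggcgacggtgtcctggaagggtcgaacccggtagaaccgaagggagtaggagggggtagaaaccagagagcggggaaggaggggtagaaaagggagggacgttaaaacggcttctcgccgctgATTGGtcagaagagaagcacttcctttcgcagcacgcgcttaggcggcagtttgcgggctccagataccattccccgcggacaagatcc
Ddx1: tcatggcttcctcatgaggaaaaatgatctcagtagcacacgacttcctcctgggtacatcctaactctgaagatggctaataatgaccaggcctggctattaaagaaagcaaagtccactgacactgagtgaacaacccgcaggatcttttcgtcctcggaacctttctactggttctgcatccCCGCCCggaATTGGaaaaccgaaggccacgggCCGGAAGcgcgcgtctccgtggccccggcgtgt
Snrpb2: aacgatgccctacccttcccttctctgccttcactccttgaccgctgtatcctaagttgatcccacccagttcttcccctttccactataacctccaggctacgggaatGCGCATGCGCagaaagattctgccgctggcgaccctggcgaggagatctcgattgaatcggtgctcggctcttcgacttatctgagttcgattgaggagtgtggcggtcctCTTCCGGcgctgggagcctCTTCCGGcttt
In Snrpa the capitals are 3 CCAAT boxes, 201, 198 and 170 bases before the start, the first 2 of which overlap. Ddx5 held 1, at 89 bases. Ddx1 held a GC box at 65 bases, a CCAAT box at 56 and an ETS site at 33, and Snrpb2 an NRF1 site at 141 and ETS sites at 30 and 11. Over the 88 member promoters, 28.4% held the ETS site, against 7.74% of 27457 promoters of the same length. The GC box was in 55.7% of the member promoters against 32.4%, the CCAAT box in 44.3% against 34.3%, the NRF1 site in 3.41% against 0.849% and the TATA box in 5.68% against 13.1%. These matches describe letters in the window and not bound sites. The 27457 promoters, 1 per gene symbol, were not limited to genes on the array or detected in cord. Whether detected genes at large have the same shares was not tested.

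At end stage the members as a group did not stand away from the WT pools, and only a few of them differed. Of the 90 probes, 2 rose (2.22%) and 0 fell at an adjusted p below 0.05 by limma, where 1.31% of all probes were called higher and 0.370% lower (1.68% in all). At an unadjusted p below 0.05 there were 18 of the 90 members, against 17.8% of all probes. With a 75th-percentile shift of the arrays 1 member rose (3.51% of all probes did) and 4 fell (4.44%, against 4.80% of all probes). The members' median log2 difference was 0.01, with 46 higher and 44 lower, and that of all probes was −0.01.

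Snrpa encodes the U1 snRNP A protein, which binds a stem-loop of U1 snRNA, the RNA that recognises the 5′ splice site. Its intensity was 557, 564 and 525 in the presymptomatic, onset and end-stage WT pools and 812, 601 and 760 in the mutant pools of the same stages. Every mutant pool lay above every WT pool, with the onset pool only slightly above them. At end stage the log2 difference from the WT pools was 0.55 ± 0.04 (SE, adjusted p = 0.0433). The presymptomatic difference was 0.67 ± 0.04, but with an adjusted p of 0.143 it did not pass, and that of onset was 0.13 ± 0.04 (adjusted p = 0.332). The end-stage and presymptomatic mutant pools did not differ by the test (−0.12 ± 0.04, adjusted p = 0.331). With any 1 WT pool left out, the end-stage estimate stayed between 0.55 and 0.56. Those fits kept 1 residual degree of freedom and called none of the probes on the array, so they cannot decide whether the call holds. Under 5 other settings the end-stage call did not hold (adjusted p = 0.0784 to 0.526).

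Snrpb2 encodes the B″ protein of the U2 snRNP, a close relative of the product of Snrpa. The WT pools stood at intensities of 503, 565 and 428 and the mutant pools at 859, 603 and 738, again with no overlap and with the onset mutant pool nearest to the WT pools. The log2 difference was 0.92 ± 0.15 in the presymptomatic, 0.30 ± 0.15 in the onset and 0.67 ± 0.15 in the end-stage pool, and none passed (adjusted p = 0.247, 0.552 and 0.174). The third Snrp gene with values was Snrpn, which encodes SmN, the form of the Sm protein B found mainly in neurons. Its intensity was 11514, 8417 and 9758 in the WT pools and 9927, 7042 and 7861 in the mutant pools, lower than WT at each stage though the groups overlapped. Its genotype difference with stage as a block was −0.33 ± 0.03 and did not pass (adjusted p = 0.383), and the summed neuronal markers were lower in the same pools.

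**Figure D1:**
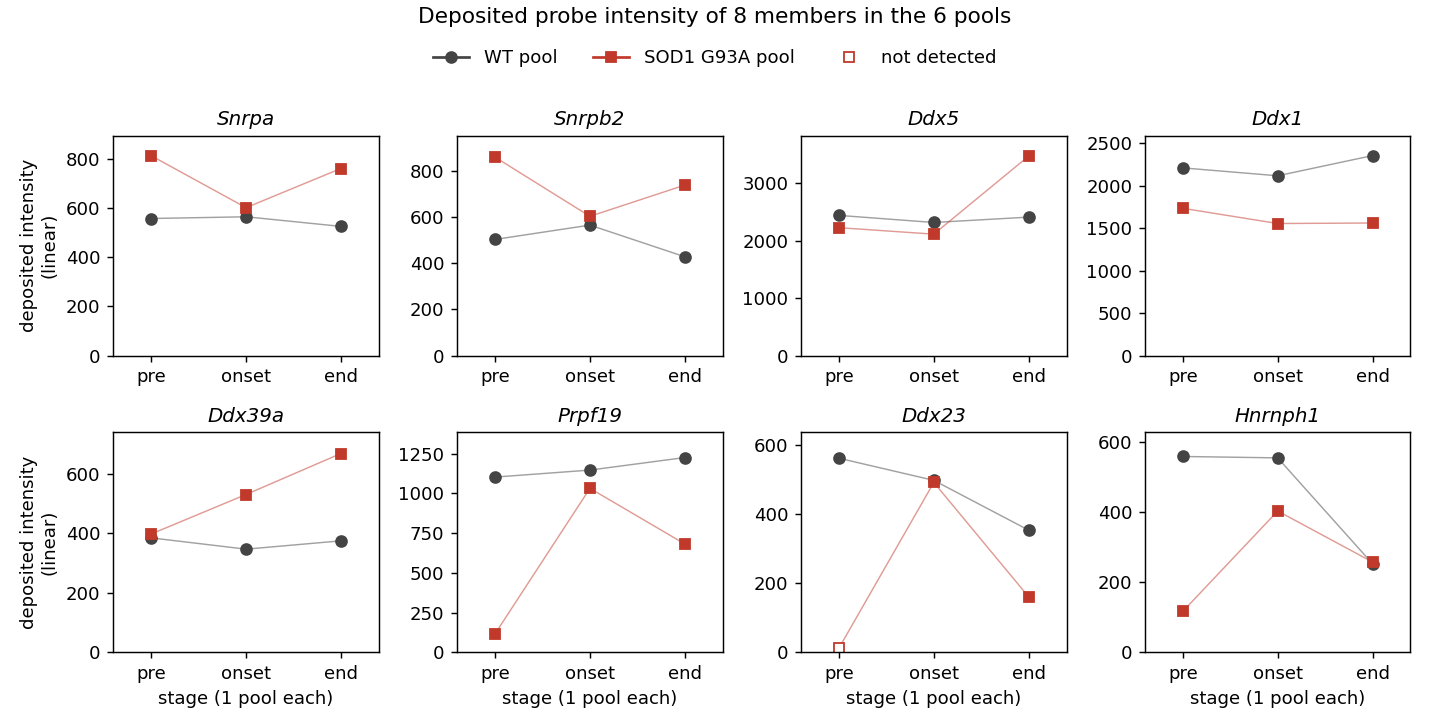
Deposited linear intensity (vertical axis from 0, a scale of its own for each gene) of 8 members in the pools of the 3 stages (horizontal axis), with 1 point per pool, WT in grey circles and SOD1 G93A in red squares, an open symbol where the probe was not detected, and lines that join pools of a genotype. Snrpa, Snrpb2 and Ddx39a lie higher and Ddx1 lower in every mutant pool, Ddx5 is highest in the end-stage mutant pool (3466), and Prpf19 and Ddx23 are lowest in the presymptomatic mutant pool (116 and 11.9).

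Ddx5 encodes p68, a DEAD-box helicase that acts in splicing and as a transcriptional coactivator. Its intensity was 2436, 2313 and 2406 in the WT pools, 2223 and 2110 in the presymptomatic and onset mutant pools and 3466 in the end-stage mutant pool. The end-stage mutant pool thus stood alone above the others, whereas the earlier mutant pools were just below WT. Against the WT pools it was 0.55 ± 0.04 higher (adjusted p = 0.0445), and the earlier pools differed by −0.15 ± 0.04 (adjusted p = 0.302) and −0.13 ± 0.04 (adjusted p = 0.346). The difference between the end-stage and presymptomatic mutant pools was 0.70 ± 0.05 and did not pass (adjusted p = 0.0629). As for Snrpa, the fits with 1 WT pool left out called no probe at all and cannot decide whether the call holds. Under 5 other settings the end-stage call of Ddx5 did not hold (adjusted p = 0.0794 to 0.445). Its paralog Ddx17, which encodes p72, was dim, with intensities of 65.8, 57.1 and 39.3 in the WT pools and 14.5, 89.3 and 31.8 in the mutant pools, and its end-stage difference was −0.05.

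Ddx39a, a DEAD-box helicase of mRNA export, had the highest end-stage difference among the members. Its intensity was 385, 347 and 375 in the WT pools and 398, 531 and 669 in the mutant pools of the 3 stages. The mutant pools lay above the WT pools without overlap, the presymptomatic pool by a small margin. The end-stage difference of 0.98 ± 0.14 did not pass (adjusted p = 0.102), nor did the 0.77 ± 0.16 of both symptomatic pools (adjusted p = 0.133). Its paralog Ddx39b, the export helicase UAP56, stood at 395, 362 and 456 in the WT pools and 453, 318 and 567 in the mutant pools, which overlapped.

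Other members of the splicing families were brightest in the end-stage mutant pool without passing. Sf3b3, a subunit of SF3b, was at 572, 603 and 476 in the WT pools and at 550, 583 and 832 in the mutant pools, an end-stage difference of 0.69 ± 0.12 (adjusted p = 0.140). Srsf6, an SR protein, was at 626, 585 and 598 in WT and at 677, 527 and 899 in mutant pools (0.67 ± 0.09, adjusted p = 0.0984). Hnrnpf, which binds runs of G near splice sites, was at 2385, 1820 and 1746 in WT and at 1955, 2212 and 2973 in mutant pools (0.63 ± 0.22, adjusted p = 0.303). In all 3 the end-stage mutant value lay above the WT values, while the earlier mutant pools lay within the WT range for Sf3b3 and Hnrnpf and on either side of it for Srsf6. Dhx15, the helicase that dismantles the spliceosome after splicing, was at 233, 212 and 244 in WT and 163, 311 and 366 in mutant pools, where both symptomatic pools exceeded WT (0.47 ± 0.14, adjusted p = 0.236).

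Taken against the WT pool of the same stage, with 1 array against 1 and no replicate check, 7 of 87 members were at least 1.5-fold higher at end stage (8.05%, against 7.07% of all probes) and 4 at least 1.5-fold lower (4.60%, against 7.08%). The higher members were Ddx39a (1.84-fold), Sf3b3 (1.79-fold), Snrpb2 (1.78-fold), Hnrnpf (1.72-fold), Lsm8 (1.57-fold), Ddx18 (1.53-fold) and Srsf6 (1.52-fold). The lower members were Ddx25 (2.25-fold), Prpf19 (1.92-fold), Ddx23 (1.91-fold) and Ddx1 (1.53-fold). When the arrays were scaled to their 75th percentile instead, 0 were higher (5.26% of all probes) and 7 lower (8.05%, against 14.2% of all probes). In the onset pool, 0 members and 0 of all probes (0%) passed against the WT pools by limma (smallest member adjusted p = 0.196), with 10 members (11.1%) and 12.6% of all probes at an unadjusted p below 0.05. Set against the WT pool of onset alone, 2 of 88 members were at least 1.5-fold higher (2.27%, against 4.07% of all probes), Ddx39a (1.65-fold) and Hnrnpa2b1 (1.52-fold), and 0 were lower (2.42% of all probes). Counted in the same way, the onset WT pool exceeded the presymptomatic WT pool in 2 members (2.52% of all probes) and was under it in 1 (2.12%). The end-stage WT pool was above the presymptomatic one in 1 member (1.31% of all probes) and below it in 3 (2.72%), and above the onset one in 0 (1.49%) and below it in 1 (2.94%).

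When both symptomatic mutant pools were set against the 3 WT pools, 1 of 90 members fell (1.11%), where 0.267% of all probes were called lower, and 0 rose (1.23% of all probes). At an unadjusted p below 0.05 there were 10 members (11.1%, against 16.6% of all probes). The member that fell was Ddx1, a DEAD-box helicase of the tRNA ligase complex and of RNA granules transported in neurons. Its intensity was 2211, 2118 and 2356 in the WT pools and 1735, 1556 and 1562 in the mutant pools. Every mutant pool lay below every WT pool, the presymptomatic one included. The log2 difference of the symptomatic pools was −0.51 ± 0.06 (adjusted p = 0.0487), and for the single stages it was −0.39 ± 0.08, −0.49 ± 0.08 and −0.53 ± 0.08 (adjusted p = 0.265, 0.196 and 0.108). The direction was the same under every alternative. The call did not hold under 6 other settings (adjusted p = 0.0792 to 0.371), nor with any 1 of the 5 pools left out. Without the end-stage WT pool no probe at all was called, and without the presymptomatic WT pool only 1 of 12711 was (0.00787%). Those fits cannot decide whether the call holds. A fit without 1 of the mutant pools rests on 1 mutant pool and cannot decide it either.

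A pair of other DEAD-box genes was lower in both symptomatic pools only by value. Ddx24, a nucleolar helicase, had intensities of 2363, 2168 and 2267 in the WT pools and of 2637, 1835 and 1810 in the mutant pools, so that the presymptomatic mutant pool was the highest and the symptomatic pools the lowest of the 6. Its symptomatic difference was −0.30 ± 0.05 (adjusted p = 0.0853). Ddx25, known as a gonadotropin-regulated helicase of the testis, was at 574, 598 and 695 in WT and at 663, 524 and 338 in mutant pools, the lowest value being that of end stage (−0.93 ± 0.20, adjusted p = 0.173). Of the helicases that sense foreign RNA, Dhx58, which encodes LGP2, was dim. It stood at 56.0, 58.8 and 55.1 in WT and at 29.8, 92.5 and 101 in mutant pools. Both symptomatic pools lay above WT (0.15 ± 0.05, adjusted p = 0.256). In the same comparison 4 of 18 genes of the interferon response rose, as did 1.23% of all probes. Ifih1, another such helicase gene, did not pass (0.20 ± 0.13, adjusted p = 0.58), with −0.00 at onset and 0.41 at end stage. A link of Dhx58 to the interferon response was not tested.

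The comparison of genotypes over the 3 stages, with stage as a block, called 0 members and 0 of all probes (0%) by limma, with 9 members (10.0%) and 9.29% of all probes at an unadjusted p below 0.05. The smallest adjusted p was 0.383, and without the block 0 members were called as well. On the normalized scale the 3 mutant pools lay above the 3 WT pools for 5 members (5.56%, against 7.91% of all probes), Srsf7, Snrpa, Snrpb2, the brighter Lsm10 probe and Ddx39a. They lay below for 6 members (6.67%, against 6.74%), Hnrnpul2, Prpf19, Prpf8, Ddx1, Ddx10 and Dhx30. Both shares were near or under those of all probes. Prpf8, the central protein of the U5 snRNP, was at 146, 155 and 130 in WT and at 74.5, 150 and 119 in mutant pools, where the intensities themselves overlapped. Dhx30, a helicase of mitochondrial RNA granules, was at 832, 952 and 1015 in WT and at 803, 818 and 782 in mutant pools.

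The presymptomatic mutant pool was compared in the same way. Against the WT pools 0 members and 0 of all probes (0%) passed by limma (smallest member adjusted p = 0.143), with 23 members (25.6%) and 14.1% of all probes at an unadjusted p below 0.05. On the normalized scale, this pool was the lowest of the 6 for 29 members (32.2%, against 21.0% of all probes) and the highest for 21 (23.3%, against 27.1%). By value and with no test, the hnRNP genes were lower than the WT mean in 15 of 16 probes (median −0.18, or −0.49 with a lower noise estimate). Of these, Hnrnph3 and Hnrnpr were at −0.00 and Hnrnpf at −0.02. Against the presymptomatic WT pool alone, 13 of the 16 were lower (median −0.22). Against the WT mean, the Dhx genes were lower in 10 of 12 (median −0.12) and the Prpf genes in 6 of 8 (median −0.03). The Lsm genes were higher in 10 of 11 (median 0.36). The other families were mixed, with 5 of 9 Srsf, 2 of 3 Snrp, 3 of 5 Sf3 and 13 of 26 Ddx probes higher. Of all probes 45.9% were lower, and their median was 0.01. With a 75th-percentile shift, which moved the median of all probes to 0.19 and left 21.8% of them lower, the hnRNP genes were lower in 10 of 16 (median −0.06), the Dhx genes higher in 7 of 12 (median 0.04) and the Lsm genes higher in 11 of 11 (median 0.36). The Prpf genes were lower in 4 of 8 with that shift (median −0.01). None of the 90 member probes passed on the normalized scale. With the lower noise estimate Prpf19, Ddx23 and Hnrnph2 passed as lower (3.33%, against 2.03% of all probes; Hnrnph2 −1.54, adjusted p = 0.0405), and with the 75th-percentile shift 6 did, Prpf19, Ddx23, Hnrnph1 and Srsf5 as lower (4.44%, against 2.73% of all probes) and Lsm7 and Snrpb2 as higher (2.22%, against 0.362%).

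**Figure D2:**
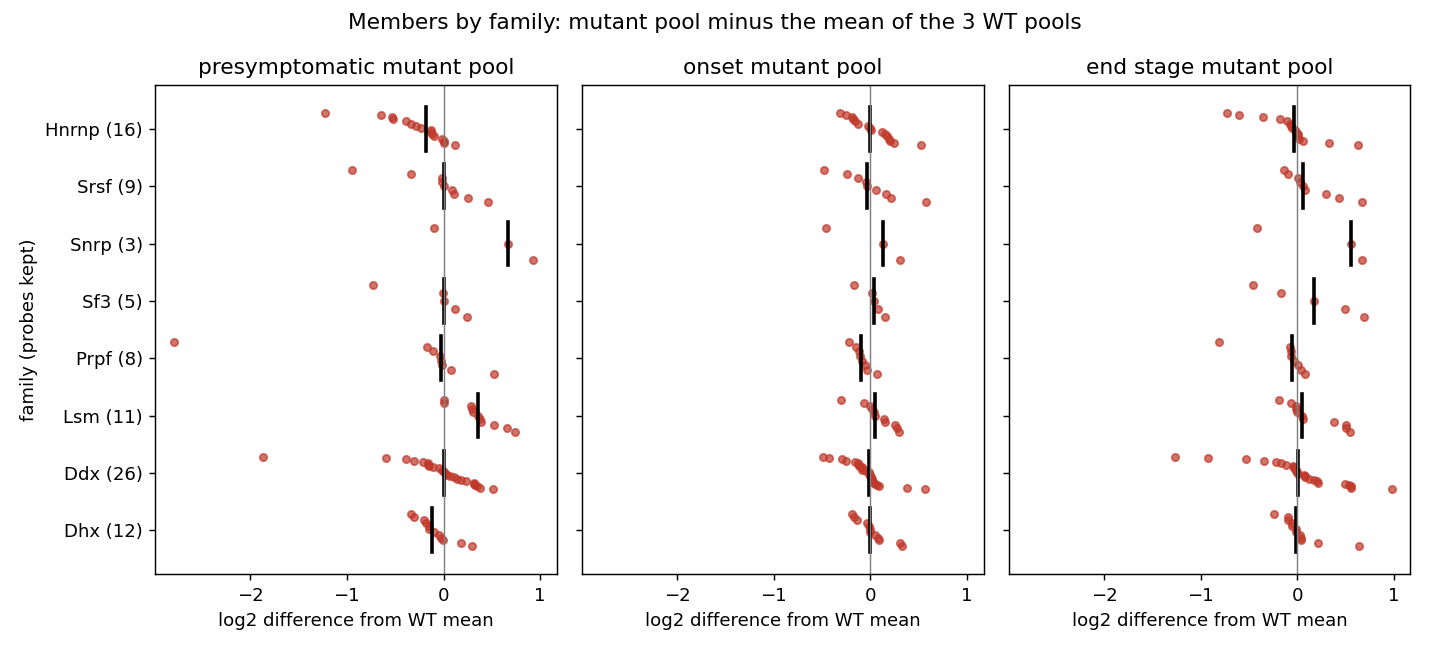
Log2 difference of each mutant pool from the mean of the 3 WT pools (horizontal axis, normalized scale) for the members of the 8 families (rows, with the number of probes kept), with 1 point per probe and a black bar at the family median. In the presymptomatic pool the Lsm median is 0.36 and the Hnrnp median −0.18, while at onset both lie within 0.05 of 0, and the points furthest to the left are Prpf19 (−2.79) and Ddx23 (−1.87).

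Among members detected in that pool, Prpf19 had the largest deficit by value. It encodes a ubiquitin ligase and scaffold of the complex that activates the spliceosome. Its intensity was 1103, 1147 and 1226 in the WT pools, 116 in the presymptomatic mutant pool, 1032 at onset and 682 at end stage. All mutant values were below the WT values, the presymptomatic one by far and the onset one slightly. The presymptomatic difference was −2.79 ± 0.12 (adjusted p = 0.143), that at onset −0.15 ± 0.12 (adjusted p = 0.741) and that at end stage −0.81 ± 0.12 (adjusted p = 0.105). With the lower noise estimate the presymptomatic difference was −2.83 and passed, as it did with 3 other settings. Each of these fits held only 1 mutant pool, so passing does not show that another such pool would be low as well. The difference between the end-stage and the presymptomatic mutant pool was 1.98 ± 0.14 (adjusted p = 0.0684), in a comparison in which 0 members and 0 of all probes (0%) passed by limma, with 17 members (18.9%) and 17.4% of all probes at an unadjusted p below 0.05.

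Ddx23, the helicase of the U5 snRNP that lets U6 replace U1 at the 5′ splice site, was at 561, 497 and 353 in the WT pools, 11.9 in the presymptomatic mutant pool, 491 at onset and 160 at end stage. It was not detected in the presymptomatic mutant pool. The deficit there was at least 3.66-fold against the WT mean, a bound taken from the lowest signal detected on the array, and the fit gave −1.87 ± 0.30 (adjusted p = 0.247). With the lower noise estimate the difference was −3.80 (adjusted p = 0.00593). At end stage the mutant pool was again under the WT pools (−1.27 ± 0.30, adjusted p = 0.189), and at onset it lay inside their range.

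Several hnRNP genes also had their lowest value in the presymptomatic mutant pool. Hnrnph1 was at 560, 556 and 253 in WT and at 117, 404 and 258 in mutant pools, so that the end-stage pools of both genotypes were alike and only the presymptomatic mutant pool fell outside the WT range (−1.23 ± 0.56, adjusted p = 0.447). Hnrnpa2b1, whose protein carries mRNAs into neuronal processes, was at 239, 126 and 36.1 in WT and at 1.63, 265 and 39.1 in mutant pools, and was not detected in the presymptomatic mutant pool (at least 1.38-fold lower than the WT mean). Its WT values ranged widely, and its onset mutant pool was the highest of the 6. Hnrnpd, which encodes the mRNA decay factor AUF1, was at 352, 408 and 304 in WT and at 165, 408 and 214 in mutant pools (presymptomatic −0.65 ± 0.13, adjusted p = 0.265). Hnrnpa1 stood at 87.0, 63.8 and 60.3 in WT and at 28.0, 76.5 and 42.6 in mutant pools.

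Outside the hnRNP genes, Srsf5 was at 886, 935 and 1054 in WT and at 479, 701 and 1134 in mutant pools, low at the first 2 stages and above WT at end stage (presymptomatic −0.95 ± 0.15, adjusted p = 0.247). Sf3b2, the SF3b subunit next to the branch site, was at 351, 269 and 214 in WT and at 85.0, 299 and 172 in mutant pools. Dhx9, a helicase that unwinds RNA and DNA duplexes, was at 175, 126 and 128 in WT and at 41.6, 179 and 113 in mutant pools, and the G-quadruplex helicase gene Dhx36 at 156, 111 and 94.7 and at 49.1, 104 and 99.7. Each of these had its lowest value in the presymptomatic mutant pool. Hnrnpab, Hnrnph2, Ddx21, Dhx37 and Dhx8, with Hnrnpa2b1 and Ddx23, are the 7 members detected on every array but that one.

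Several Lsm genes were high in the same pool. Lsm3, part of the LSm ring that holds U6 snRNA and of the cytoplasmic ring that promotes decapping, was at 670, 899 and 970 in the WT pools and at 1273, 901 and 1124 in the mutant pools (presymptomatic 0.66 ± 0.30, adjusted p = 0.443). Lsm7, of the same rings, was at 843, 824 and 942 in WT and at 1388, 940 and 757 in mutant pools (0.74 ± 0.14, adjusted p = 0.263), and Lsm4 at 968, 1122 and 1158 and at 1392, 1262 and 1055. All 3 had their highest value in the presymptomatic mutant pool, and Lsm4 and Lsm7 their lowest mutant value at end stage. The brighter probe of Lsm10, a subunit of the U7 snRNP that processes histone mRNA, was at 302, 343 and 329 in WT and at 360, 400 and 416 in mutant pools. Its second probe was at 85.9, 90.8 and 88.8 and at 117, 108 and 96.3, also above WT by intensity in each mutant pool. At onset and end stage the Lsm medians against WT were both 0.05.

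Set against the presymptomatic WT pool alone, 7 of 86 members were at least 1.5-fold higher in the mutant pool (8.14%, against 4.37% of all probes) and 8 at least 1.5-fold lower (9.30%, against 6.17%). The higher members were Lsm3 (2.01-fold), Snrpb2 (1.89-fold), Lsm7 (1.73-fold), Lsm8 (1.62-fold), Ddx20 (1.61-fold), Snrpa (1.59-fold) and Prpf3 (1.57-fold). Lower were Prpf19 (6.43-fold), Ddx23 (at least 4.47-fold), Hnrnph1 (3.04-fold), Sf3b2 (2.07-fold), Hnrnpa2b1 (at least 1.89-fold), Srsf5 (1.78-fold), Hnrnpd (1.55-fold) and Hnrnpl (1.51-fold). Lower members numbered 19 with the lower noise estimate (22.1%, against 16.2% of all probes), and 21 on the scale of the deposited normalized values (24.4%, against 18.4%). On the same scales higher members numbered 10 (11.6%, against 16.2% of all probes) and 8 (9.30%, against 21.8%), shares below those of all probes. With the 75th-percentile shift 8 were higher (9.30%, against 5.54%) and 7 lower (8.14%, against 5.96%). This pool had fewer probes detected than any other, and the part of that in these counts was not tested.

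**Figure D3:**
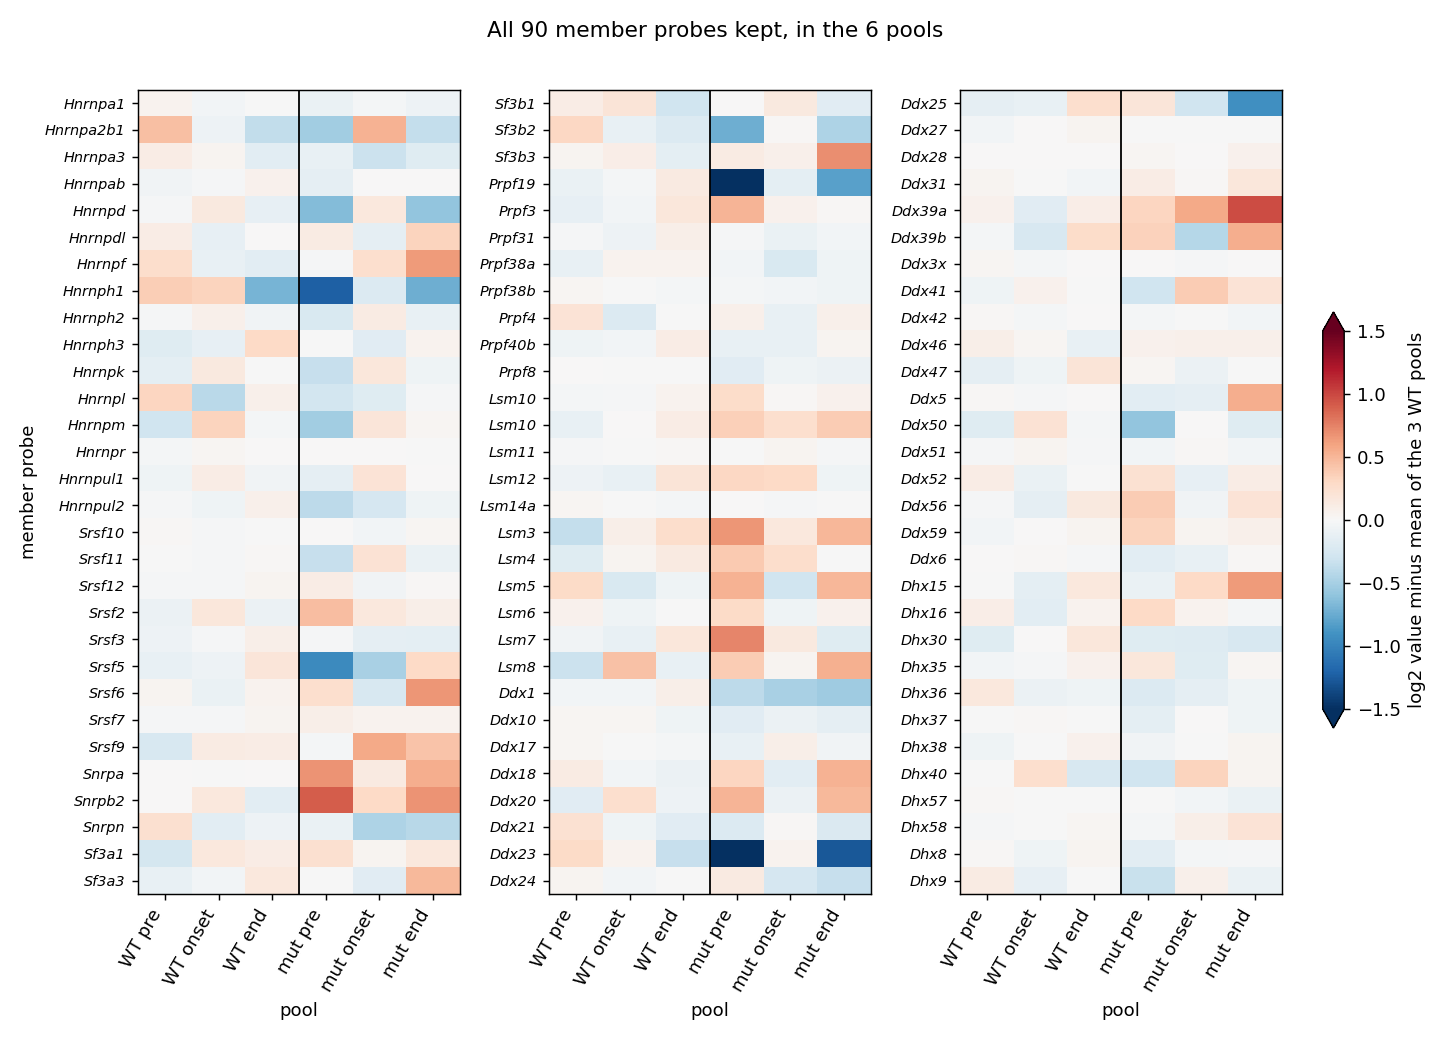
All 90 member probes kept (rows, in order of family across the 3 panels) in the 6 pools (columns, WT left of the black line), coloured by the log2 value minus the mean of the 3 WT pools on the normalized scale, with colours saturated beyond 1.5. Blue and red cells gather in the presymptomatic and end-stage mutant columns (Prpf19 −2.79 and Ddx23 −1.87 presymptomatic, Ddx39a 0.98 at end stage), while the onset mutant column lies between −0.49 and 0.57.

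Values of other members with known roles follow. Ddx6, the helicase of P-bodies, was at 3829, 3701 and 3865 in WT and at 3602, 3322 and 3868 in mutant pools, and Hnrnpa3 at 3880, 3570 and 3228 and at 3498, 2730 and 3162. Hnrnpk was at 382, 477 and 397 in WT and at 288, 481 and 398 in mutant pools, Srsf3 at 195, 222 and 210 and at 162, 200 and 174, and Srsf2 at 297, 373 and 274 and at 374, 367 and 325. Sf3b1, the branch-site protein, was at 267, 300 and 159 in WT and at 197, 291 and 198 in mutant pools. The differences of Ddx6, Hnrnpa3, Srsf3 and Sf3b1 from WT were between −0.32 and 0.15 at each stage, and those of Hnrnpk and Srsf2 reached −0.34 and 0.46 in the presymptomatic pool. Prpf31, mutated in human retinitis pigmentosa, was dim (29.2 to 66.3 over all pools), and Ddx3x was near background (11.2 to 29.5), so that their differences are not resolved.

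Genes of neighbouring pathways were read from 7 lists of known components. Of their 113 probes 0 passed in any comparison by limma, where 1.68% of all probes passed at end stage and 1.49% in the symptomatic pools. At an unadjusted p below 0.05 there were 11 for the genotype effect (9.29% of all probes) and 21 at end stage (17.8% of all probes). There were 20 in the presymptomatic pool (14.1% of all probes), 12 at onset (12.6%) and 18 in the symptomatic pools (16.6%). Between the end-stage and presymptomatic mutant pools there were 20 (17.4% of all probes). Of the 13 listed ALS-linked RNA-binding genes outside the families, 5 had named probes. Smn1 was at 809, 775 and 715 in WT and at 841, 817 and 939 in mutant pools. Taf15 was at 269, 209 and 149 and at 54.5, 237 and 148, low in the presymptomatic mutant pool like several hnRNP genes. Against the presymptomatic WT pool alone, 2 of the 5 were higher and 3 lower, from −0.83 for Taf15 to 0.29 for Ewsr1. The end-stage difference from WT was 0.15 for Ewsr1 and −0.04 for Gle1, while Ighmbp2 was near background (6.17 to 25.4 over all pools, detected on 3 of 6 arrays), so that its difference is not resolved. The 6 SMN complex genes were all higher in the presymptomatic mutant pool than in its WT pool (median 0.33), as were 55.5% of all probes. They ranged from 0.11 for Smn1 to 0.62 for Gemin7, with none passing against the WT pools. The lists of 52 probes for other splicing factors, 11 for the exon junction complex and export, 10 for 3′ end processing, 25 for RNA decay and 12 for other helicases had end-stage medians against WT between −0.03 and 0.11. At least 2-fold different from the WT pool of end stage were the neuronal splicing regulator Nova1 (−1.10, 962, 671 and 725 in WT and 654, 511 and 373 in mutant pools), Khdrbs3 (−1.10), and the AU-rich element binding genes Zfp36 (1.81) and Zfp36l1 (1.49). Against all WT pools the end-stage adjusted p was 0.202 for Nova1, 0.260 for Khdrbs3, 0.0863 for Zfp36 and 0.497 for Zfp36l1.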

How the data were processed

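RNA of 30 rats went into 6 pools of 5, and 750 ng per pool was biotin-labelled for an array, per the labels' protocols. The authors deposited a non-normalized table that gives each probe's linear intensity on every array beside its detection p-value, made with BeadStudio 3.2.6 per the submitters' processing notes. These deposited intensity values were already background-subtracted and scaled to nearly equal means (330.9 to 332.4). A deposited normalized intensity table of unstated method served as an alternative. Because the deposited probe IDs were out of order, IDs were sorted as text, and gene symbols were taken from the platform annotation. All 96 member probes matched RefSeq with 0 symbols changed. Normalization used neqc (offset 16) of limma 3.58.1 under R 4.3.3, whose lowest value was 6.62. Probes with a detection p below 0.01 on at least 1 array were kept. Fits used lmFit and eBayes with 2 residual degrees of freedom (3 for the symptomatic pools), were two-sided, and were tested on simulated data. With 1 pool per genotype and stage, p-values measure only the spread between these pools. Alternatives were regressed noise (the lower noise estimate), a 75th-percentile shift, the deposited normalized values, other detection filters, a trended robust prior, no stage block, the IDs as deposited, and each pool left out. The members and gene lists were chosen with earlier results of these data known. Named were members that passed, the 2 brightest and the end-stage extremes of each family, those at least 2-fold different and a list of known genes. Others were named after their values were seen.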

Additional observations from a re-analysis of the deposited data

How the results depend on the processing

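Counts of called members were not stable. At end stage, 2 members passed, against 1 with regressed noise, 5 with a 75th-percentile shift and 0 with the deposited normalized values. The count was 0 over probes detected on all 6 arrays and 0 with the IDs as deposited. A trended and robust prior gave 0 members as higher and 1 as lower. Of all probes, 1.31% were called higher and 0.370% lower, against 3.51% and 4.80% with the shift. With regressed noise these shares were 2.64% and 0.598%, and with the trended prior 4.67% and 1.20%. Fits without 1 of the WT pools, with 1 residual degree of freedom, called no probe at all and cannot decide whether calls hold. In the presymptomatic pool, 0 passed, against 3 with regressed noise, 6 with the 75th-percentile shift and 1 with the deposited values. With the trended prior 2 passed. All-probe calls there also moved from 0, to 0.0236% higher and 2.03% lower with regressed noise, and to 0.362% and 2.73% with the shift. With the deposited values 0.999% were higher and 0.0472% lower, and with the trended prior 0.0865% and 0.661%. For the symptomatic pools, 1 passed, against 0 with regressed noise, the 75th-percentile shift or the deposited values. The count was also 0 with no detection filter, the trended prior or the IDs as deposited. Of all probes, 1.23% were called higher and 0.267% lower, against 1.97% and 1.27% with the shift. With the trended prior these shares were 3.93% and 0.999%. With 1 WT pool left out 0 members passed. Without the end-stage WT pool no probe at all did, and without the presymptomatic WT pool only 1 probe did (0.00787%). Leaving out 1 mutant pool repeats the single-stage comparisons given above. The stage numbers pair mutant with WT pools, and without that stage block the genotype count stayed 0. A shorter list of probes enters the fit over probes detected on all 6 arrays and a longer one without the filter, and the cause of the other shifts was not tested.

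Directions of the single members followed through all settings reversed for Snrpn (genotype 0.03) and Prpf19 (presymptomatic 0.14), both with the IDs as deposited, which pair the names with other values. The members' medians also moved. For the genotype effect they were −0.02 with regressed noise, 0.05 with the 75th-percentile shift, −0.05 with the deposited values, 0.03 over probes detected on all 6 arrays and 0.01 with the IDs as deposited. At end stage they were 0.03 with the 75th-percentile shift, 0.03 with the deposited values and 0.04 over probes detected on all 6 arrays. At onset they were −0.03 with regressed noise, −0.04 with the 75th-percentile shift and −0.04 with the deposited values, and −0.02 to −0.00 with a WT pool left out. In the presymptomatic pool they were −0.04, 0.10 and −0.10 in the same order, and 0.02 with the IDs as deposited. For the symptomatic pools they were 0.01 with the 75th-percentile shift, −0.02 with the deposited values, 0.03 over probes detected on all 6 arrays and 0.01 with the IDs as deposited, and −0.01 to 0.01 with a pool left out. Over all probes, the median with the 75th-percentile shift was 0.10 at end stage and 0.19 in the presymptomatic pool.

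Stage-matched counts past 1.5-fold also moved. Presymptomatic members lower numbered 19 with regressed noise, 21 with the deposited values (all-probe shares of 16.2% and 18.4%) and 4 with the IDs as deposited, which gave 2 higher. At onset 1 was higher with the 75th-percentile shift (1.14%, against 3.09% of all probes) and 7 with the deposited values (7.95%, against 14.8%). Over probes detected on all 6 arrays 1 was higher at onset. Lower at onset were 3 with the deposited values (3.41%, against 14.7% of all probes) and 3 with the IDs as deposited. At end stage the 75th-percentile shift gave 0 higher and 7 lower (5.26% and 14.2% of all probes). The deposited values gave 7 lower (8.05%, against 18.5% of all probes) and the IDs as deposited 4 higher. The presymptomatic medians were −0.10 with regressed noise, 0.06 with the 75th-percentile shift, −0.19 with the deposited values, 0.01 over probes detected on all 6 arrays and 0.07 with the IDs as deposited. Those at onset were −0.03 with the 75th-percentile shift and −0.00 with the IDs as deposited, and those at end stage 0.07, −0.07, 0.02 and 0.00 with the 75th-percentile shift, the deposited values, probes detected on all 6 arrays and the IDs as deposited.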
